A study of Danio rerio with 24 samples.

Results

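Sarcomere and calcium handling genes were followed across liver, kidney and muscle of adult zebrafish injected with LPS or PBS. The members were every zebrafish gene on the array whose symbol begins with myh, myl, tnni, tnnt, tnnc, tpm, acta, actn, myoz, mybpc, tcap, ryr, casq, atp2a, ckm or pvalb, the symbol being found through the accession listed for the probe. This rule took 90 of the 12858 named genes and 205 of the 43603 probes, and for each gene the probe with the highest mean over the 24 arrays was used. Of the 90 members, 88 were tested. The other 2, acta1a (a skeletal alpha-actin) and myl12.1 (a nonmuscle myosin light chain), were brighter than the 95th percentile of the signal on all 24 arrays.

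A sarcomere contracts when myosin thick filaments pull on actin thin filaments. Troponin and tropomyosin on the thin filament block this until calcium binds troponin C. The calcium is held by calsequestrin in the sarcoplasmic reticulum, leaves it through the ryanodine receptor and is pumped back by the SERCA ATPases of the atp2a genes, while parvalbumin buffers it in fast fibres and creatine kinase regenerates the ATP that is used. Fast, slow and heart muscle each use their own paralogs of most of these proteins, which makes the paralogs useful as markers of the muscle type present in a tissue.

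The fish were wild-type adults of 9 months, and their sex is not stated. The labels give every sample a normal diet, while the treatment protocol speaks of 8 months on a differential diet, and nothing in the sources used here settles this. Each was injected intraperitoneally with PBS or with the same volume holding 10 μg of LPS, and tissues were taken after 3 hours. The 6 groups, PBS liver, LPS liver, PBS kidney, LPS kidney, PBS muscle and LPS muscle, each had 4 one-colour arrays, and every array carried RNA of a pool of 3 fish. Levels are given as the log2 signal relative to the 75th percentile of the same array, so that a level of 0 is the 75th percentile, and the levels of different genes, which come from different probes, were not compared with each other.

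In the whole set of arrays, 39.4% to 84.8% of the spots lay well above background, a call made per spot by the scanner software. The arrays came from 10 slides, none of which held more than 1 tissue, so that tissue and slide cannot be told apart. The labelled tissues carried their defining genes on all 8 of their arrays, with 8 of 8 liver genes, 9 of 10 kidney and marrow genes and 26 of 28 fast skeletal members well above background in liver, kidney and muscle respectively. These genes were not confined to their tissue. All 8 liver genes were also well above background on all 8 muscle arrays, and 7 on all 8 kidney arrays. The same held for 6 of 10 kidney and marrow genes on the liver arrays and 15 of 28 fast skeletal members on the kidney arrays. Genes of 3 other tissues were also high on the muscle arrays: the median of 11 oocyte genes there was 6.95, 2.81, 7.15 and 4.70 on the PBS arrays and 6.80, 6.0, 6.84 and 6.85 on the LPS arrays. The median of the liver genes on the muscle arrays lay between 3.25 and 5.54 with PBS and between 1.99 and 6.82 with LPS, and that of the exocrine pancreas genes between 3.81 and 6.20 with PBS and between 2.26 and 7.26 with LPS. On the liver arrays the exocrine pancreas median lay between 6.27 and 7.90 with PBS and between 7.76 and 9.08 with LPS. In these whole tissues, fewer cells of a type and less RNA per cell cannot be told apart, and the part of other tissues in the differences below was not tested.

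The members belonged to 15 families, the largest being the myosin light chains and related genes (16 members), the troponin I genes (12 members) and the myosin heavy chains (9 members), and no gene with the tcap prefix was found. By known role, 28 members were genes of fast skeletal muscle, 10 of slow skeletal muscle, 11 of the heart, 6 of smooth muscle and 7 of nonmuscle cells, and 28 were on none of these lists. Among the last are 5 genes taken by their prefix alone: the thiopurine methyltransferases tpmt.1 and tpmt.2, the ubiquitin ligase mylipa, and the kinases mylk3 and tnni3k, both of which act in the heart in mammals. In the PBS groups the highest mean was in the muscle for 64 members, in the liver for 20 and in the kidney for 6. In the LPS groups these numbers were 63, 22 and 5, and 60, 17 and 3 members respectively had their highest mean in the same tissue under both treatments. Some of these highest means were not measured levels. Of the 20 members highest in PBS liver, myh6, myh7l, mylk3, tnnc1a and tnni3k were well above background on no PBS liver array. The members myl4, tnnt2a and tpm4b were so on 1, and pvalb5, highest in PBS muscle, on no PBS muscle array.

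How many members could be measured differed by tissue. On the PBS muscle arrays 74 of 90 members lay well above background on all 4 arrays and 6 on none. In the PBS kidney 47 did so on all 4 arrays and 10 on none, and in the PBS liver 28 on all 4 and 37 on none. Counted per array, 77 to 85 members were well above background in muscle, 52 to 74 in the kidney and 29 to 47 in the liver. The 37 members below this limit on every PBS liver array include the fast myosin heavy chains myhz1.1, myhz1.2, myhz2 and myhc4, the parvalbumins pvalb2, pvalb3 and pvalb4, the ryanodine receptor ryr1b and the calsequestrin casq1a. For such genes a fold change is given only as a lower bound, against the lowest signal that was well above background on those arrays.

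**Figure D1:**
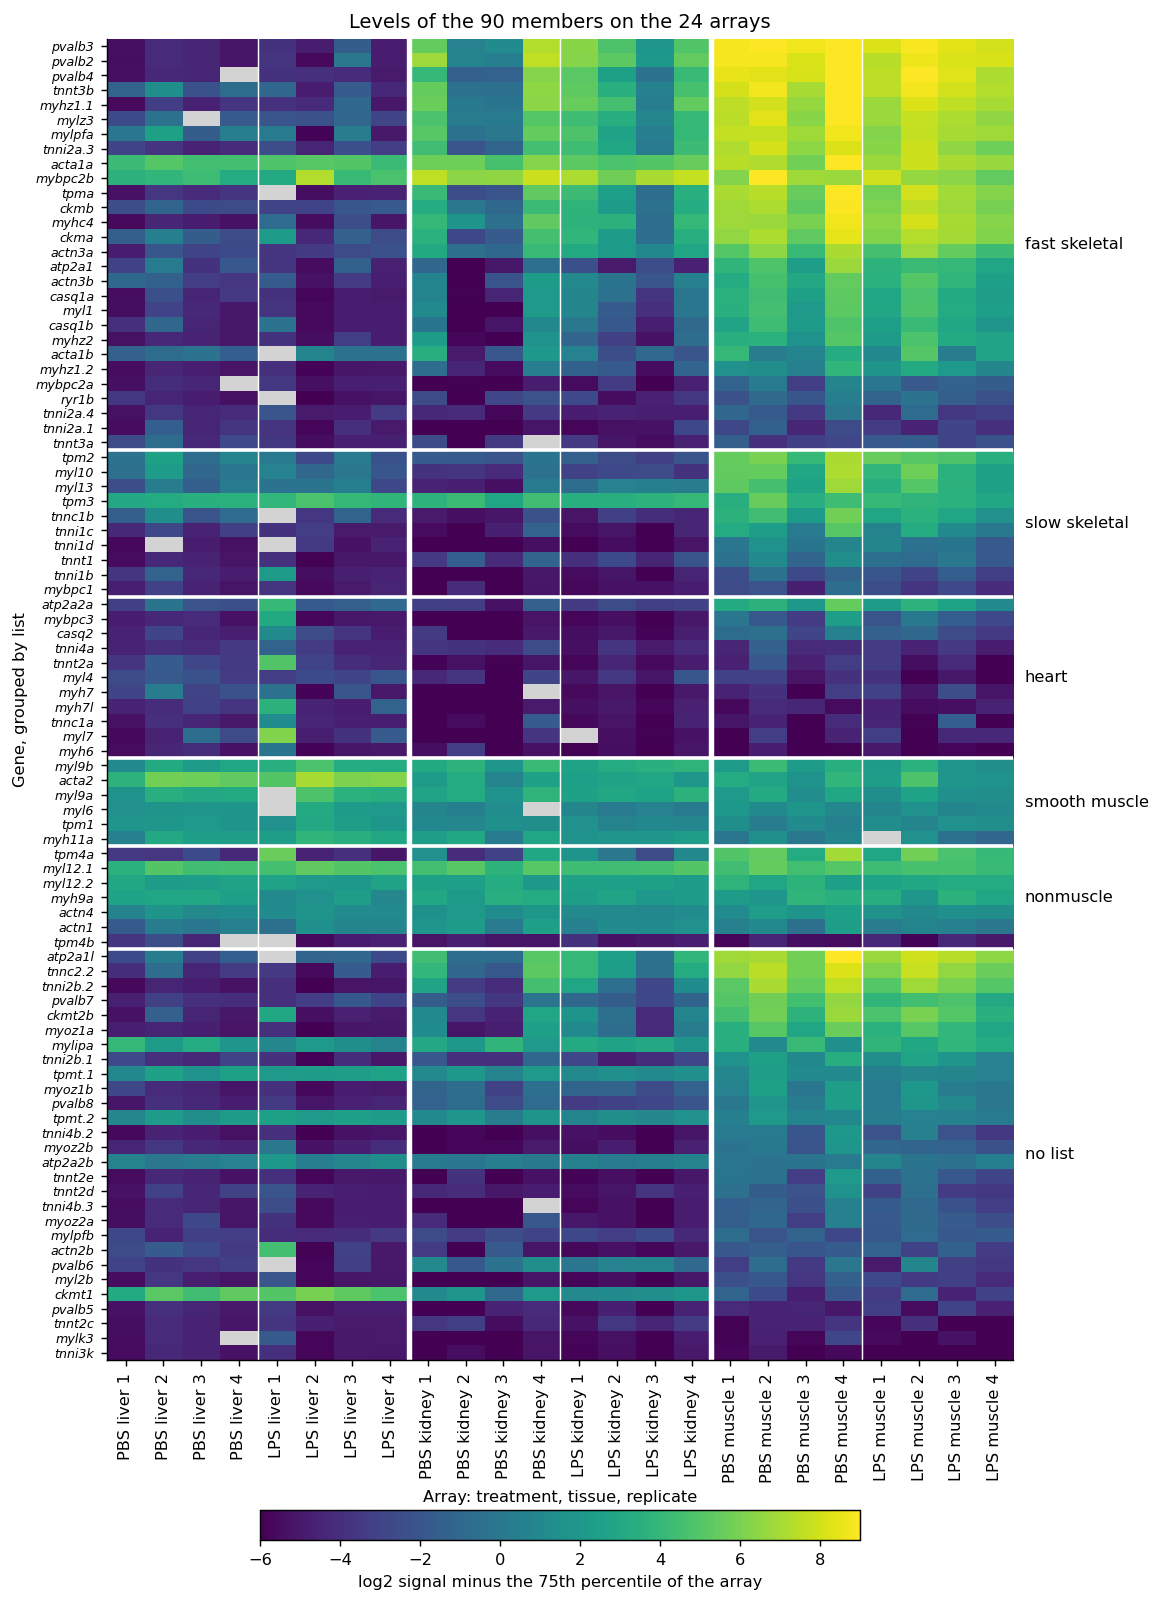
Levels of the members on each of the 24 arrays, as log2 signal relative to the array's 75th percentile (colour), with 1 row per gene grouped by list and 1 column per array grouped by tissue and treatment. The fast and slow skeletal genes are high on all 8 muscle arrays, and the fast genes are also raised on some of the kidney arrays. Most heart genes are high on 1 LPS liver array, and 3 of the 11 were well above background on all 8 muscle arrays. Grey cells are outlier spots that were left out.

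The first comparison asked how the members differ between the unstimulated tissues. Muscle against liver, on the PBS arrays, had 47 of 88 members higher in muscle (53.4%) and 1 lower, while over all 12480 genes tested 5.45% were higher and 5.05% lower (limma, Benjamini-Hochberg adjusted p under 0.05). The median fitted difference of the members was 3.60 on the log2 scale, against 0.04 for all genes. Of the fast skeletal genes 24 of 27 were higher in muscle and none was lower, with a median of 8.14, and of the slow skeletal genes 7 of 10 were higher, with a median of 5.05. With the members not well above background in one tissue set at their bounds, these medians were 3.45 for all members, 7.95 for the fast and 4.94 for the slow genes.

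The parvalbumins, the calcium buffers of fast fibres, had the largest differences between muscle and liver. On the PBS muscle arrays pvalb3 was at 8.81, 9.30, 8.66 and 9.98, and on the PBS liver arrays at -5.39, -4.19, -4.44 and -5.12, none of the last well above background. Every muscle array was far above every liver array, at least 13387-fold in the means (adjusted p = 9.64e-05). Its paralog pvalb2 was at 8.77, 8.82, 8.13 and 9.58 in muscle and at -5.43, -4.13, -4.37 and -5.11 in liver, which was at least 10289-fold higher (adjusted p = 0.000156). For pvalb4 the muscle arrays were at 8.51, 8.30, 8.12 and 10.08, and 3 liver arrays at -5.41, -4.30 and -4.47, the fourth being an outlier spot that was left out (adjusted p = 0.000492). A further parvalbumin, pvalb7, was at 4.96, 5.76, 4.43 and 6.56 in muscle and -4.71, -3.14, -4.00 and -4.04 in liver, at least 644-fold higher, and had the smallest adjusted p of the members (9.45e-05). The fifth parvalbumin called here, pvalb8, was at 0.03, 1.84, 0.37 and 2.41 in muscle and was at least 46.3-fold higher than in liver (adjusted p = 0.000189).

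Among the thick filament genes, the fast myosin heavy chain myhz1.1 was at 7.50, 7.95, 6.64 and 9.21 in PBS muscle and at -5.62, -3.20, -4.63 and -3.71 in PBS liver. The groups did not overlap, and muscle was at least 3437-fold higher (adjusted p = 0.000246). A second heavy chain, myhc4, was at 6.80, 6.72, 6.01 and 8.68 in muscle and -5.62, -4.40, -4.82 and -5.29 in liver, at least 3137-fold higher (adjusted p = 9.64e-05). Of the light chains, mylz3, a fast skeletal one, was at 7.47, 8.35, 6.31 and 9.03 in muscle and at -2.63, -0.42 and -1.70 on the 3 liver arrays measured. Its fitted difference, given here and below with its standard error, was 9.37 ± 1.24 (adjusted p = 0.000947). The myosin-binding protein mybpc2b, which links the thick filament to the rest of the sarcomere in fast fibres, was at 6.22, 9.26, 6.84 and 6.75 in muscle and 3.66, 3.88, 4.33 and 3.26 in liver, a smaller difference of 3.49 ± 0.63 (adjusted p = 0.00425).

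The thin filament and its calcium switch showed the same direction. Tropomyosin tpma was at 7.08, 7.36, 5.53 and 8.99 in PBS muscle and between -5.26 and -3.62 in PBS liver, at least 2394-fold higher (adjusted p = 0.000792). For tnni2a.3, a fast troponin I that holds the filament in its inhibited state, muscle was at 7.23, 8.02, 6.43 and 8.22 and liver between -4.57 and -2.85, a difference of 11.30 ± 1.31 (adjusted p = 0.000311). The calcium sensor tnnc2.2, a troponin C, was at 6.56, 7.47, 5.79 and 8.19 in muscle and between -4.42 and -0.63 in liver (10.11 ± 1.43, adjusted p = 0.0011). Troponin T, through tnnt3b, anchors this complex to tropomyosin and was at 8.02, 8.72, 7.05 and 9.59 in muscle against 1.47 at most in liver (9.02 ± 1.47, adjusted p = 0.00232). None of these 4 genes had a muscle array within the range of the liver arrays. Of them, tnni2a.3 and tnnc2.2 were each well above background on only 1 PBS liver array, so the size of their differences is uncertain. The actin acta1a, which was too bright to be tested, was at 7.37, 7.24, 5.81 and 9.04 in PBS muscle, 4.30, 5.02, 4.47 and 4.54 in PBS liver and 5.70, 5.70, 4.64 and 6.26 in PBS kidney. Its muscle and kidney arrays overlapped, and another 2 probes of this gene were dim.

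At the Z-disc, which anchors the thin filaments, the alpha-actinin actn3a was at 5.02, 6.47, 4.17 and 7.10 in PBS muscle and between -4.80 and -2.0 in PBS liver (8.79 ± 1.12, adjusted p = 0.000591). Only 1 of these liver arrays was well above background. Myozenin myoz1a, a binding partner of alpha-actinin, was at 3.48, 5.12, 2.79 and 5.55 in muscle and not well above background on any PBS liver array, at least 446-fold higher (adjusted p = 0.00239). Both genes thus separated the tissues without overlap.

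The calcium store followed. The SERCA pump atp2a1l was at 6.83, 7.04, 5.83 and 9.08 in PBS muscle and between -3.01 and 0.33 in PBS liver (8.91 ± 1.32, adjusted p = 0.00146). Calsequestrin casq1a, the calcium-binding protein of the store, was at 3.61, 4.41, 2.53 and 5.30 in muscle and was at least 196-fold higher than in liver (adjusted p = 0.00576). The release channel ryr1b, the ryanodine receptor of skeletal muscle, had a smaller difference, being at -2.28, -0.81, -1.99 and 0.43 in muscle and between -5.35 and -3.55 in liver, at least 9.09-fold higher (adjusted p = 0.0285). Another probe of ryr1b had the opposite sign, the only such case among the 31 members called in this comparison that had several probes. Of these 31 members, 25 had all their probes called in the same direction. Probes were less uniform in the other comparisons, where this held for 20 of 28 members in muscle against kidney and for 5 of 12 in kidney against liver.

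Creatine kinases split between tissues. The cytosolic muscle isoform ckmb was at 6.89, 7.18, 5.27 and 8.89 in PBS muscle and at -2.45, -1.16, -2.63 and -2.55 in PBS liver (9.25 ± 1.08, adjusted p = 0.000334). The mitochondrial ckmt2b, named after the sarcomeric mitochondrial enzyme, was at 4.57, 5.79, 3.68 and 6.76 in muscle, whereas 3 of the 4 PBS liver arrays were not well above background (9.23 ± 1.50, adjusted p = 0.00232). Its paralog ckmt1 ran the other way: it was at 3.17, 5.17, 4.40 and 5.33 in PBS liver, at 1.17, 1.87, -0.89 and 2.07 in PBS kidney and at -1.11, -2.65, -4.74 and -1.99 in PBS muscle. With a difference of -7.14 ± 0.84 (adjusted p = 0.000366), ckmt1 was the only member called lower in muscle than in liver. It was also the only one called lower in muscle than in kidney, by -3.68 ± 0.84 (adjusted p = 0.0203), and was lower in kidney than in liver by -3.46 ± 0.84 (adjusted p = 0.0339). Over the 24 arrays its level had a correlation of -0.80 with the median of the members, the lowest of all members, where arrays of one tissue shared slides. Taken as deviations from the group means, the correlation of ckmt1 was 0.54.

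**Figure D2:**
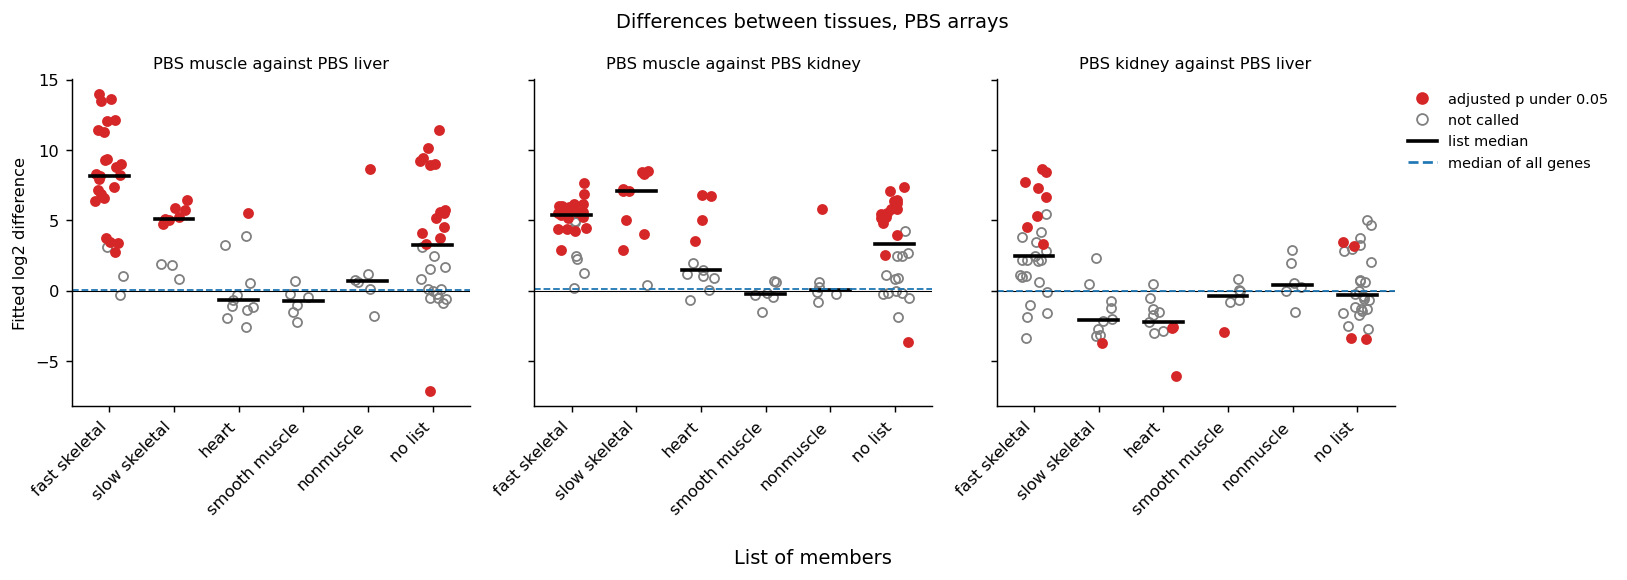
Fitted log2 differences between the PBS tissues for each member tested, by list, in 3 panels (muscle against liver, muscle against kidney, kidney against liver). Filled red points have an adjusted p under 0.05, open grey points do not, the black bar is the list's median and the dashed blue line the median of all genes tested. Fast genes sit high in the 1st panel with a median of 8.14, slow genes in the 2nd with a median of 7.09, and in the 3rd the fast median is 2.43 and the slow median -2.09. Points of members not well above background in a tissue have no measured size, and the lowest red points of the 3rd panel include some that were not well above background in either.

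Muscle against kidney gave a similar number but a different order. Here 48 of 88 members (54.5%) were higher in muscle and 1 was lower, against 4.21% and 3.49% of all genes. The median was 4.31, against 0.13 for all genes. The slow genes had the higher list median, 7.09 with 9 of 10 members called, while the fast genes had 5.37 with 20 of 27 called. Of the 11 heart members, mybpc3, casq2, atp2a2a and myh7 were also called higher in muscle than in kidney. The first 3 of these were well above background on all 8 muscle arrays, and myh7 on 1 PBS array of each tissue. Against liver 1 heart member was called higher in muscle. The 5 largest called differences without overlap were those of myl13 and myl10, light chains on the slow list, tnnc1b, a slow troponin C, the pump atp2a1 and the parvalbumin pvalb7. The count rested in part on single arrays and slides: leaving out 1 array gave 25 to 54 calls, and the slide as a random block 27. The shares of all genes in these fits are not given, so whether the changes were particular to the members cannot be told.

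For myl13 the PBS muscle arrays were at 5.29, 4.59, 2.71 and 6.85 and the PBS kidney arrays at -4.49, -4.68, -5.40 and 0.13 (8.47 ± 1.19, adjusted p = 0.00152). One kidney pool, the fourth, stood well above the other 3. In the same way tnnc1b was at 3.65, 4.42, 2.15 and 5.78 in muscle and at -4.93, -5.40, -5.10 and -2.26 in kidney (8.43 ± 0.95, adjusted p = 0.000535). Light chain myl10 was at 5.42, 5.44, 2.99 and 7.15 in muscle and at -3.80, -3.76, -4.21 and -0.37 in kidney (8.28 ± 1.04, adjusted p = 0.000863). For all 3 slow genes the kidney pool with the highest level was again the fourth. The difference of atp2a1 was 7.64 ± 1.34 (adjusted p = 0.00516) and that of pvalb7 was 7.37 ± 0.70 (adjusted p = 0.000308), the smallest adjusted p of the members here, shared with the slow troponin I tnni1d.

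Some of the fast genes with the largest differences from liver did not pass the test against kidney. On the PBS kidney arrays pvalb2 was at 6.82, 0.73, 0.43 and 7.55 and myhz1.1 at 5.62, 0.04, -0.18 and 6.39. Pools 1 and 4 came nearest to the muscle levels and pools 2 and 3 were well below them. Although all muscle arrays were above all kidney arrays, the adjusted p was 0.0516 for pvalb2 (4.94 ± 1.39) and 0.0508 for myhz1.1 (4.86 ± 1.36). Of the other 5 probes of myhz1.1, 4 passed (differences of 3.97 to 5.35, adjusted p of 0.0302 to 0.0481). For pvalb3, at 5.46, 0.66, 1.21 and 7.29 in kidney, the difference was 5.53 ± 1.19 (adjusted p = 0.0146). The probe of mybpc2b differed by 0.20 between muscle and kidney (adjusted p = 0.884), while its other 2 probes differed by 3.15 and 3.57, the last with an adjusted p of 0.0333, so that the level of this gene in the kidney depends on the probe.

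Kidney against liver completed the comparison of tissues, with 10 of 88 members (11.4%) higher in kidney and 7 (7.95%) lower, against 2.86% and 2.89% of all genes. The members' median was -0.02, against -0.03 for all genes. PBS arrays of the same replicate number had positively correlated deviations in all pairs of tissues, although some correlated more with another number. With the replicate number as a block the count was 37, of which 20 were higher (8.13% of all genes) and 17 lower (13% of all genes), with all 17 of the first calls kept. Leaving out 1 array gave 7 to 29 calls, and the shares of all genes in those fits are not given. The 2 fibre lists had medians of opposite sign: the fast genes had a median of 2.43 (2.2 with bounds), with 22 of 27 positive and 8 called higher, and the slow genes a median of -2.09, with 8 of 10 negative and 1 called lower. Of the negative slow genes, mybpc1 was well above background on no array of either tissue, and tnni1b on no kidney array. For tnni1d this held on 1 array of each tissue, and tnni1c was so on no liver array. The lowest signal well above background lay between -8.65 and -4.62 in PBS kidney and between -5.20 and -4.28 in PBS liver. The members called higher were the parvalbumins pvalb2, pvalb3, pvalb4, pvalb6 and pvalb8, the myosins myhc4 and myhz1.1, and tnni2a.3, actn3a and mybpc2b.

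The parvalbumins also led here. In kidney pvalb2 was at least 335-fold higher than in liver (adjusted p = 0.00248), pvalb3 at least 289.6-fold (adjusted p = 0.00101) and pvalb4 at least 87.6-fold (adjusted p = 0.0352). The myosins myhc4, at 4.00, 1.75, -0.44 and 5.34 in PBS kidney, and myhz1.1 were at least 150.0-fold and 119-fold higher (adjusted p = 0.000725 and 0.00742). No kidney array of these 5 genes fell within the range of the PBS liver arrays, but the kidney pools themselves spread over more than 5 log2 units. Of the 7 members called lower, tnnc1b differed by -3.71 ± 0.95 (adjusted p = 0.0433) and acta2, the smooth muscle actin, by -2.95 ± 0.67 (adjusted p = 0.024), and ckmt1 is given above. Heart troponin T tnnt2a (-2.64, adjusted p = 0.0343) was well above background on 2 PBS kidney arrays and 1 PBS liver array, and myh7, a heart-type myosin, on 1 and 3. The remaining 2, myh7l and tnni4b.3, were not well above background on any of these arrays, and no fold is given for them.

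The parvalbumin family held a paralog with its highest PBS mean outside muscle. On the PBS kidney arrays pvalb6 was at 1.08, -1.88, -0.26 and 1.39, on the PBS liver arrays at -3.00, -3.78, -3.62 and -3.13, and on the PBS muscle arrays at -3.20, -0.58, -3.43 and -0.07. It was higher in kidney than in liver by 3.47 ± 0.86 (adjusted p = 0.0364), and a second probe gave 3.33 (adjusted p = 0.0449). Kidney and muscle arrays overlapped, and the difference of -1.90 ± 0.86 between muscle and kidney did not pass the test (adjusted p = 0.248). The kidney pools 1 and 4 were again the higher ones.

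That split of the kidney pools ran through the fast list. Its median was 3.37, -2.57, -1.78 and 4.25 on the PBS kidney arrays, and pools 1 and 4 were both above pools 2 and 3 for 23 of 28 fast genes. The same held for 3 of 10 slow genes and for 0 of 6 smooth muscle genes. On the LPS kidney arrays the fast median was 3.45, 2.21, -0.59 and 3.08, and the third pool was the lowest for 21 of 28 fast genes. The PBS pools thus covered a wider range than the list's median change after LPS, which is given below. Among the genes with the widest split was tnnt3b, at 5.48, -0.33, -0.50 and 6.45 with PBS and 5.27, 3.54, 0.60 and 4.65 with LPS.

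Other lists bear on this split. The slow median on the PBS kidney arrays was -4.71, -4.40, -4.88 and -1.20, so that only the fourth pool was raised, and with LPS it was -4.60, -2.91, -4.25 and -4.09. The median of 20 further muscle genes that are not members was -0.92, -3.97, -4.56 and 0.12 with PBS and -1.35, -2.60, -3.99 and -2.07 with LPS, again with PBS pools 1 and 4 and LPS pool 3 at the ends. Their summed linear signal ran from 135 to 435 in the PBS kidney and from 152 to 304 in the LPS kidney, relative to a 75th percentile set to 1. In the liver this sum was similar, from 106 to 424 with PBS and from 237 to 499 with LPS. There 4 of the 20 genes were well above background on all 8 arrays and 9 on none. Desmin desma, a muscle intermediate filament that is no member, was at 0.68, -3.03, -4.60 and 1.53 in the PBS kidney. The smooth muscle median did not follow, with 2.27, 3.09, 1.46 and 2.88. Genes of other tissues also varied over the same PBS pools, the liver genes with medians of -1.80, 7.63, 4.38 and 0.40 and the oocyte genes with 6.25, -0.43, 6.16 and -0.24. The liver genes were thus highest in pools 2 and 3, where the fast genes were lowest, and the oocyte genes followed neither. The part of any of these tissues in the split was not tested.

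**Figure D3:**
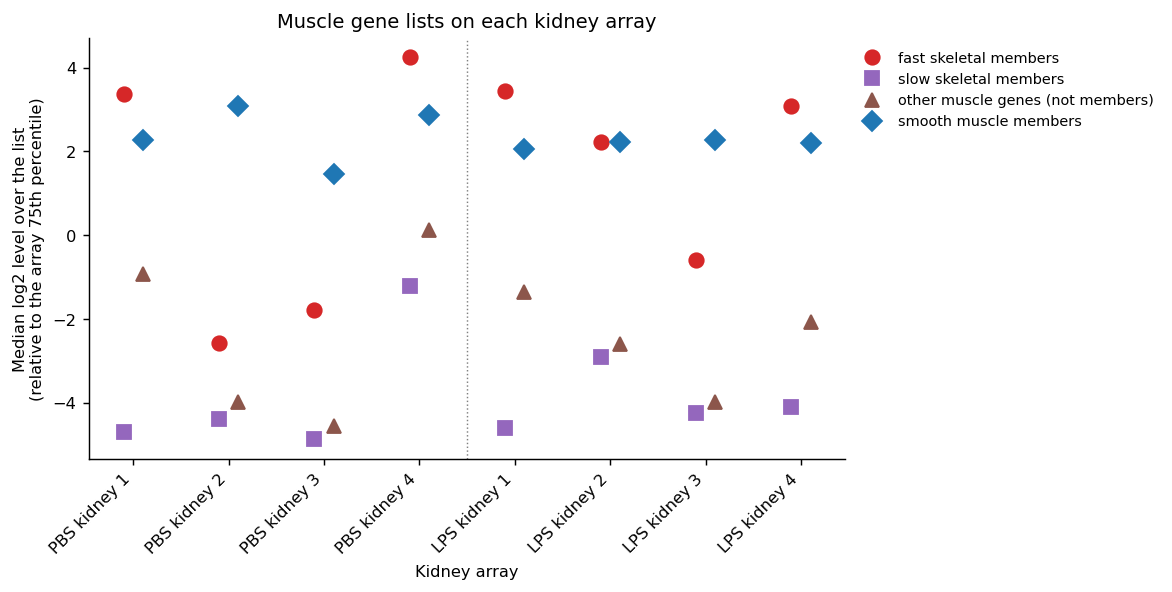
Median level of 4 gene lists (y axis, log2 relative to the 75th percentile of the array) on each of the 8 kidney arrays (x axis), with red circles for the fast and purple squares for the slow skeletal members, blue diamonds for the smooth muscle members and brown triangles for the muscle genes that are not members. The fast skeletal median runs from -2.57 to 4.25 over the PBS pools while the smooth muscle median stays between 1.46 and 3.09.

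Most heart genes were not well above background on most liver arrays, with 1 exception. The median of the 11 heart members on the LPS liver arrays was 1.29, -4.37, -4.06 and -4.50, and the first pool was the highest of the 8 liver arrays for 9 of the 11, by a median gap of 4.29 to the next. For 8 of the 11 it was the highest of all 24 arrays, muscle included. On this array 9 heart members lay well above background, against 1 to 4 on the other liver arrays.

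The values of single genes show the size of this. The heart myosin light chain myl7 was at 6.17, -4.73, -3.82 and -1.69 with LPS and -5.67, -4.49, -0.58 and -2.58 with PBS. Heart troponin T tnnt2a was at 4.91, -2.96, -4.06 and -4.40 with LPS and -3.72, -1.64, -2.83 and -3.48 with PBS. The heart myosin-binding protein mybpc3 was at 3.13, -5.80, -5.00 and -4.97 with LPS and between -5.26 and -4.14 with PBS. In all 3 genes the first LPS pool stood alone and the other 3 LPS pools lay near the PBS pools. The pump atp2a2a, used in heart and slow muscle, was at 4.04 on that array and between -3.14 and -0.25 on the other 7. The tropomyosin tpm4a, which acts in the zebrafish heart besides nonmuscle cells, was at 5.57, -4.49, -3.95 and -5.10 with LPS and between -4.25 and -2.63 with PBS. The mitochondrial creatine kinase ckmt2b, at 3.00, -5.39, -4.63 and -4.89 with LPS, had the same pattern.

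Not every heart member was raised there. The light chain myl4 was at -3.29 on the first LPS liver array, the lowest of the LPS pools, and myh7 at -0.35 was below the 0.36 of the second PBS liver pool. The gene of the atrial hormone nppa, no member, was at 1.90, -5.85, -4.96 and -4.97 with LPS and between -5.52 and -4.35 with PBS, and was well above background on 2 of the 24 arrays. The summed linear signal of the heart list ran from 1.04 to 146 over the LPS liver arrays and from 0.731 to 3.21 over the PBS liver arrays. Heart tissue in that pool was not tested as a source.

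**Figure D4:**
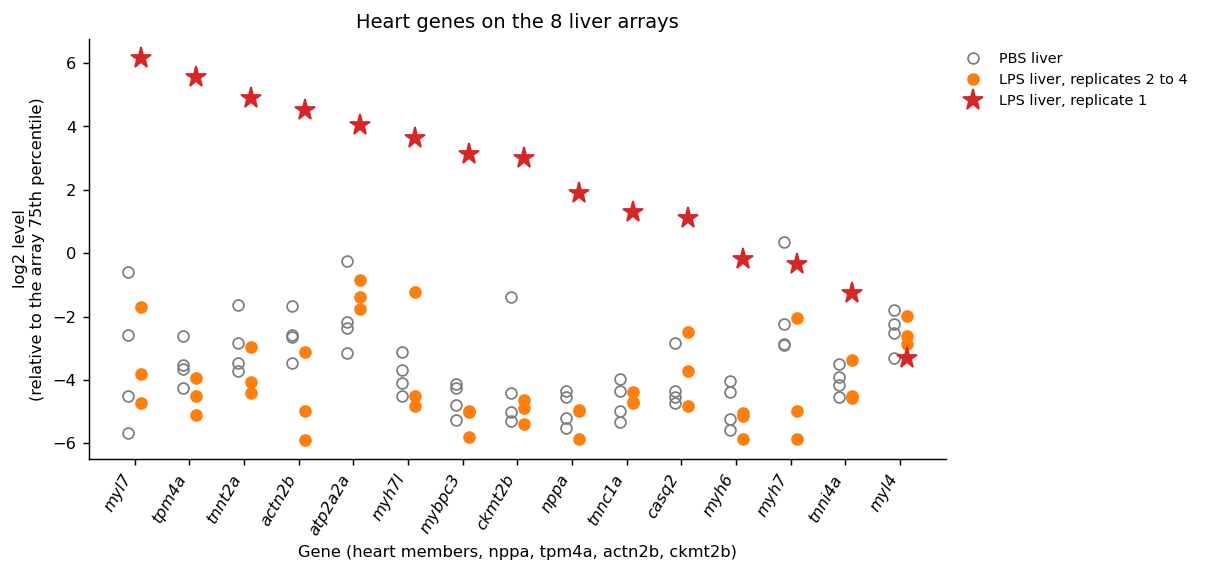
Levels on the 8 liver arrays (y axis, log2 relative to the 75th percentile of the array) of the 11 heart members and of nppa, tpm4a, actn2b and ckmt2b (x axis), with open grey circles for PBS pools, filled orange circles for LPS pools 2 to 4 and red stars for LPS pool 1. The red star is the highest of the 8 arrays for 9 of the 11 heart members, myl4 and myh7 being the others.

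A second liver pool stood apart in the skeletal genes. The second PBS liver array was the highest of its group for 23 of 28 fast genes and 8 of 10 slow genes. Its slow median was 0.32, against -3.04, -3.18 and -1.97 on the other PBS liver arrays. There tnnc1b was at 1.48, against -1.48, -2.09 and -0.78, and myl10 at 2.31, against -0.44, -1.05 and -0.08. The fast myosin light chain mylpfa was at 2.54, against -0.11, -1.56 and 0.43. The slow tropomyosin tpm2 was at 2.61, against -0.27, -0.61 and 0.69.

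Some members well above background on all 24 arrays had their highest PBS mean in the liver. Smooth muscle actin acta2, the main actin of vessel walls, was at 3.69, 5.83, 5.72 and 5.31 in PBS liver and 4.99, 7.02, 6.02 and 6.19 in LPS liver, against 2.19, 3.23, 0.73 and 2.58 in PBS kidney and 3.25, 2.78, 1.65 and 3.85 in PBS muscle. Muscle and kidney overlapped. Its difference between muscle and liver, -2.26 ± 0.67, did not pass the test (adjusted p = 0.0587). In the actin family, acta2 had its highest PBS mean in the liver and the skeletal acta1a and acta1b in muscle. Of the last 2, acta1a was not tested. The differences of acta1b did not pass the test, with 3.09 against liver (adjusted p = 0.256) and 2.45 against kidney (adjusted p = 0.379 by limma). In the SERCA family, atp2a2a was higher in muscle than in liver by 5.55 ± 0.90 (adjusted p = 0.00233), with PBS muscle at 3.17, 3.63, 2.0 and 5.44, whereas its paralog atp2a2b was at 0.69, -0.07, 0.31 and 0.63 in liver, 0.14, -0.13, 0.39 and 0.06 in kidney and -0.08, -0.31, -0.25 and 0.15 in muscle, a spread in which the groups overlapped. No difference of atp2a2b passed the test (adjusted p from 0.418 to 0.731).

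None of the 6 smooth muscle members was called between muscle and the other tissues by its brightest probe. The medians were -0.72 against liver and -0.25 against kidney. The smooth muscle tropomyosin tpm1 was at 1.87, 1.94, 2.09 and 1.76 in PBS liver and at 1.50, 0.38, 1.24 and 0.57 in PBS muscle, without overlap, a difference of -0.99 ± 0.38 (adjusted p = 0.143). Another probe of tpm1 went the other way and was called higher in muscle, by 4.38 against liver (adjusted p = 0.0173) and by 4.58 against kidney (adjusted p = 0.0169), so that the direction of this gene depends on the probe. Its correlation with the members' median over the 24 arrays was -0.61, and that of the smooth muscle myosin heavy chain myh11a was -0.55, the next lowest after ckmt1. Taken as deviations from the group means, the correlations were -0.46 for tpm1 and 0.57 for myh11a. Of the 6 nonmuscle members tested, tpm4a was called in muscle against liver (at least 397-fold, adjusted p = 0.00198) and in muscle against kidney (5.78 ± 1.36, adjusted p = 0.0233). None of its other 3 probes was called in either comparison, with differences of 0.59, 1.05 and 1.71 against kidney and of 0.21, 1.66 and 1.96 against liver. The members most like the median of all were ckma, the other cytosolic muscle creatine kinase (r = 0.99), and atp2a1l (r = 0.98), over 24 and 23 arrays.

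The next comparisons asked what LPS changed 3 hours after injection. In the liver none of the 88 members was called, against 0.545% of all genes (limma, smallest adjusted p of a member 0.188). Without adjustment 8 members (9.09%) had a p under 0.05, against 18.1% of all genes, and 5 (5.68%) had LPS and PBS arrays without overlap, against 12.9%. The median difference was 0.13, against 0.03 for all genes, and 52 of 88 were positive. Its sign rested on single pools. Without the first LPS liver pool the median was -0.35, with 30 positive, no member called (against 0.248% of all genes higher and 0.0321% lower) and 16 with an unadjusted p under 0.05, against 17.1% of all genes. Without the second PBS liver pool it was 0.47, with 63 positive, and the fast list went from -0.25 to 0.29. The heart list had a median of 1.46 with all arrays and of -0.09 without the first LPS pool. Without that pool no slide held liver arrays of both treatments.

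With the slide as a fixed block, 13 members were called higher in LPS liver: actn2b, atp2a2a, casq2, ckmt2b, mybpc3, myh6, myh7l, myl7, myl9a, myoz2b, tnnc1a, tnnt2a and tpm4a. Over all genes 0.986% were called higher in that fit and 0.817% lower. Only 1 slide held liver arrays of both treatments, the first LPS pool beside 3 PBS pools, so that the difference within slides is the value of that pool. There the heart list differed by a median of 5.64 and all members by 0.73. With the slide as a random block no member was called.

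The lowest p in the liver belonged to myh9a, a nonmuscle myosin heavy chain, at 2.68, 2.85, 2.95 and 2.48 with PBS and 1.1, 1.57, 2.36 and 0.92 with LPS. All LPS arrays were below all PBS arrays (-1.25 ± 0.41, adjusted p = 0.188 by limma). For mylipa the arrays were at 3.97, 2.15, 3.25 and 1.88 with PBS and 0.92, 2.13, 1.49 and 0.73 with LPS (-1.49 ± 0.54, adjusted p = 0.224). One LPS pool lay within the PBS range. Between them in p was the troponin T tnnt3a, well above background on 0 LPS and 2 PBS arrays and at least 3.76-fold lower with LPS (adjusted p = 0.1997). The troponins tnnc1b and tnnt3b, well above background on 2 LPS and 4 PBS arrays each, differed by -2.29 ± 0.94 and -2.29 ± 0.96 (adjusted p = 0.297 and 0.301). All 6 smooth muscle members had a positive difference in the liver, with a median of 0.98, or 1.17 without the first LPS pool. Within the slide that held both treatments the median of this list was -0.30, with 1 LPS and 3 PBS arrays. Without the first LPS pool, treatment and slide cannot be told apart. Of the smooth muscle members, myl9b, a light chain, was at 1.15, 3.14, 2.28 and 2.88 with PBS and 3.48, 4.76, 3.30 and 3.24 with LPS, without overlap (1.33 ± 0.53, adjusted p = 0.276). Transgelin tagln, a smooth muscle gene that is no member, was at 2.48, 5.23, 4.84 and 4.88 with PBS and 4.28, 6.13, 5.39 and 5.08 with LPS, groups that overlapped. Other lists also differed between these groups: the oocyte median lay between 3.31 and 5.92 with PBS and between 2.3 and 3.25 with LPS, and that of the kidney and marrow genes between -2.55 and 0.51 with PBS and between 0.42 and 2.25 with LPS. Their part in the smooth muscle values was not tested.

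In the kidney none of the 88 members was called, against 0.0721% of all genes, and the smallest adjusted p was 0.501 (limma). Without adjustment 5 members had a p under 0.05, against 5.99% of all genes, and 3 did not overlap, against 5.75%. Among the 5, tnni4b.3 and tnni2a.1 were well above background on no kidney array and myh7 on 1 PBS array only. Both myh7 and tnni4b.3 are also among the 3. Kidney arrays of the same replicate number had positively correlated deviations between treatments, and with the number as a block 0 members were called and 11 had an unadjusted p under 0.05, against 12.6% of all genes. PBS pools 1 to 3 shared a slide and scan day that held no LPS kidney array, while the fourth PBS pool shared its slide with LPS pools 1 to 3. Within that slide, with 1 PBS and 3 LPS arrays, the members' median difference was -1.37 and that of the fast list -2.86. The members' median was 0.33, against -0.01 for all genes, with 58 positive. This sign, too, rested on single pools: without the third PBS pool it was -0.25, without the second -0.11, and without the fourth 0.89. The fast list went from 0.76 with all arrays to -0.23 without the third PBS pool and to 1.96 without the fourth. The lowest signal well above background lay between -8.65 and -4.62 with PBS and between -6.28 and -4.75 with LPS. The 10 members well above background on no PBS kidney array were so on no LPS kidney array either. Their differences, all positive and counted in the 58 and in the members' median, have no measured size: mybpc1, mybpc3, myh7l, myl2b, mylk3, tnni1b, tnni2a.1, tnni3k, tnni4b.2 and tnni4b.3.

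The slow light chain myl13 had the largest change among members well above background, at -4.49, -4.68, -5.40 and 0.13 with PBS and -0.69, 0.68, 0.50 and 0.28 with LPS. The 4 LPS pools lay close together, and 1 PBS pool, the only one on a slide with LPS kidney arrays, was within their range (3.80 ± 1.12, adjusted p = 0.501). The second probe of myl13 changed by 0.07 (adjusted p = 0.994). Without that PBS pool, the fourth, myl13 was called with an adjusted p of 0.0149, the only member called in any fit of LPS kidney against PBS kidney that left out 1 array, with 0.136% of all genes called higher. In that fit treatment, slide and scan day cannot be told apart. Of the other slow genes tnnc1b was at -5.20, -3.14, -4.03 and -4.47 with LPS and myl10 at -3.11, -2.67, -2.56 and -3.78. The slow list's median change was 0.11 with all arrays and 0.91, with 8 of 10 positive, without the fourth PBS pool. Alpha-actinin actn4, a nonmuscle gene, was at 1.56, 2.12, 1.30 and 1.95 with PBS and 1.04, 1.04, 0.92 and 1.23 with LPS, without overlap (-0.68 ± 0.31, adjusted p = 0.501).

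In the muscle none of the 88 members was called, nor was any of the 12480 genes (0%, limma, smallest adjusted p of a member 0.848). One member had an unadjusted p under 0.05, against 2.59% of all genes, and 1 did not overlap, against 2.08%. The former was pvalb7, at 4.96, 5.76, 4.43 and 6.56 with PBS and 3.83, 4.45, 4.80 and 3.07 with LPS (-1.39 ± 0.57, adjusted p = 0.848). The groups overlapped, with 2 LPS pools above the lowest PBS pool. The latter was the methyltransferase tpmt.1 (-0.73, adjusted p = 0.848).

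Most members had a negative difference in LPS muscle. The median was -0.59, against -0.10 for all genes, and 75 of 88 were negative, among them 24 of 27 fast and 10 of 10 slow genes, with list medians of -0.48 and -1.01. Their size rested in part on single pools. The fourth PBS muscle pool was the highest of its group for 24 of 28 fast and 7 of 10 slow genes, and the third the lowest for 24 of 28 and 9 of 10. The raw 75th percentile, to which levels are relative, ran from 379 to 732 with PBS and from 738 to 1811 with LPS. Among the PBS muscle pools it was lowest in the fourth and highest in the third. Its part in these differences was not tested, and the share of all genes with a negative difference is not given. The fast median was 5.62, 6.59, 4.72 and 6.93 with PBS and 5.22, 6.72, 5.92 and 4.84 with LPS, which overlap widely. Without the fourth PBS pool the fast median change was 0.01, with 14 positive and 13 negative, that of the slow list was -0.63 with 10 of 10 negative, and that of all members was -0.27. Without the third PBS pool these medians were -1.0, -1.50 and -0.98. The median of all members was -0.36 without the fourth LPS pool, -0.38 without the second PBS pool and -0.90 without the second LPS pool. Within the slides that held both treatments the members' median was -0.16 in one, with 2 arrays of each treatment, and -1.11 in the other, with 1 of each.

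Among the slow genes in muscle, myl10 was at 5.42, 5.44, 2.99 and 7.15 with PBS and 3.86, 5.68, 3.60 and 2.55 with LPS, and tpm2 at 5.46, 6.0, 4.07 and 7.07 with PBS and 5.51, 5.08, 4.81 and 3.43 with LPS. The groups overlapped in both. The slow list's median per array was 3.32, 3.42, 1.19 and 4.71 with PBS and 1.80, 3.46, 1.96 and 0.83 with LPS. The oocyte genes given above were lowest on PBS muscle pools 2 and 4, the same pools in which the fast median was highest among the PBS arrays, and their part in these differences was not tested.

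**Figure D5:**
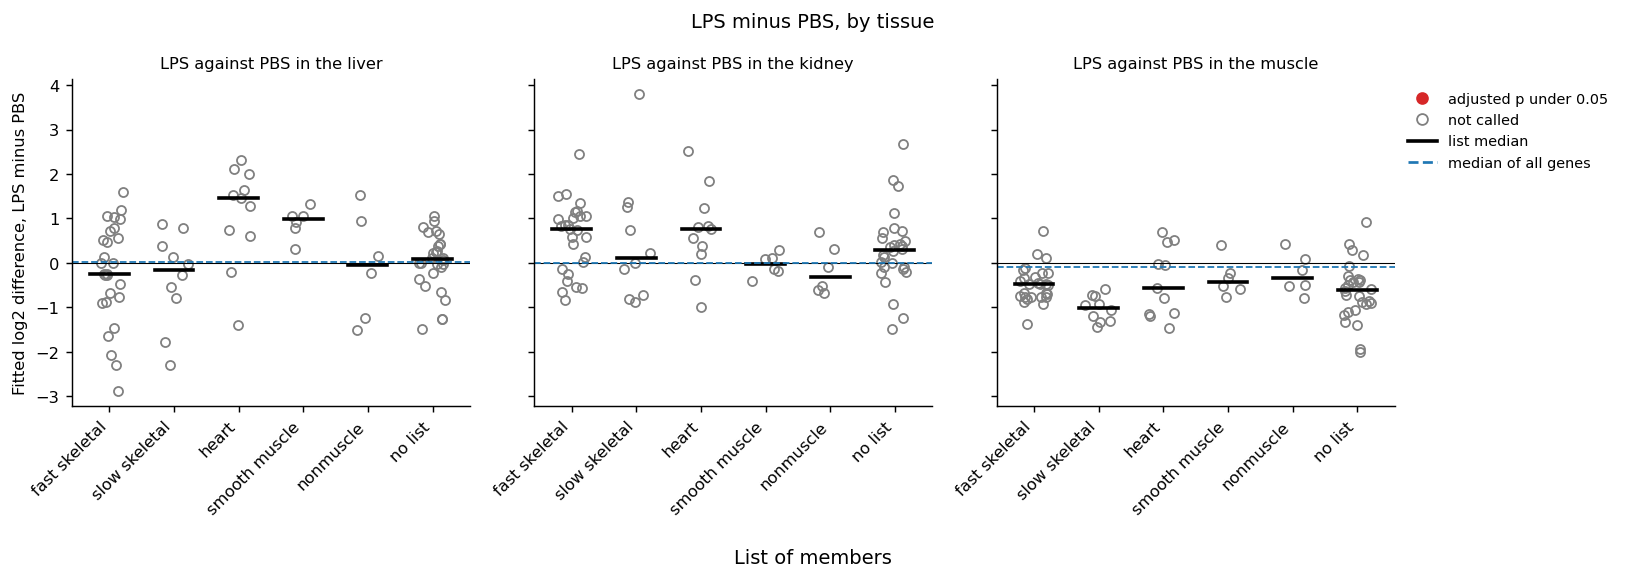
Fitted log2 differences, LPS minus PBS, of each member tested in liver, kidney and muscle, by list, with the list median as a black bar and the median of all genes as a dashed blue line. No member is filled, since none had an adjusted p under 0.05, and the medians of all members are 0.13, 0.33 and -0.59. Points of members not well above background with either treatment have no measured size.

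Whether the LPS effect differed between the tissues was tested with a treatment by tissue interaction over all 24 arrays. None of the 88 members was called, nor any of the 12480 genes (0%), and the smallest adjusted p of a member was 0.377 (limma). Without adjustment 7 members had a p under 0.05 (7.95%), against 12.6% of all genes. The lowest was that of myl13 (adjusted p = 0.377), whose 2 probes in the kidney are described above and whose liver and muscle arrays overlapped between treatments. The set also includes pvalb7 (adjusted p = 0.377), with the change in muscle described above.

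The differences between tissues were also fitted on the LPS arrays in place of the PBS arrays. Muscle against liver then had 61 members called, 49 higher and 12 lower, against 28.1% and 29.7% of all genes, with 43 of the 48 PBS calls kept and a median of 2.43. In muscle against kidney 53 were called, 51 higher and 2 lower, against 14.8% and 15.4% of all genes, with 43 of 49 kept. For kidney against liver the numbers were 31 called, 24 higher and 7 lower, against 14.3% and 10.7% of all genes, with 11 of 17 kept. On the LPS arrays, too, ckmt1 was high in liver, at 4.98, 5.93, 5.31 and 4.76, lower in kidney, at 1.06, 1.24, 1.38 and 1.92, and lowest in muscle, at -3.39, -0.75, -4.49 and -3.08, without overlap of any pair of tissues. For pvalb3 the LPS muscle arrays were at 8.19, 8.87, 8.41 and 7.97, the LPS kidney arrays at 6.33, 4.83, 1.89 and 4.93 and the LPS liver arrays at -3.79, -4.79, -1.56 and -4.88, in the same order as with PBS and without overlap.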

How the data were processed

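RNA of 24 pools (4 for each of 3 tissues with PBS or LPS) had been hybridized to one-colour Agilent arrays. The authors deposited, per array, the processed signal, an intensity per spot already corrected by the scanner software for background and for spatial trends but not scaled to other arrays. The file headers name Feature Extraction 10.7.3.1 and the labels 10.4.0.0. The authors also deposited a table of log2 values, shifted at the 75th percentile with a further offset per probe, which served as an alternative. No column of it was left unmapped.

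Control spots and outlier spots were left out, no spot was saturated, and log2 intensity minus the 75th percentile of the array was averaged per probe. Probes were named by RefSeq accession from a table of zebrafish genes (25069 of 43603 probes, 12858 genes), and each gene was represented by its probe with the highest mean. Probes with at least 1 of 24 arrays between the 20th and 95th percentile of the signal were tested. The methods state these limits but not the number of arrays.

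Linear models with moderated statistics (lmFit and eBayes of limma 3.58.1, run in R 4.3.3) were fitted over all probes tested, with Benjamini-Hochberg adjustment and a threshold of 0.05, without a block. LPS and PBS were compared on the 8 arrays of a tissue, the tissues on the 12 PBS arrays, and the interaction on all 24. The fits were tested on simulated data. A gene not well above background on any array of a group has a lower bound in place of a fold, from the group means of log2 values, in which the lower group was set, per array, to the lowest signal well above background or its own, whichever was higher.

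The named genes were the member of each family highest in PBS muscle, in each tissue comparison the 5 called members of largest change without overlap and those lower in muscle, members called after LPS, and paralogs highest in different tissues. Further members, chosen after their values were seen, are those described for single pools, those of lowest p after LPS and those on either side of the threshold. The members, the gene lists and the rules were chosen with earlier results of these data known.

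Arrays of the same replicate number deviated together from their group means in the kidney, where r between PBS and LPS was 0.42, 0.39, 0.29 and 0.64 over probes, and between all pairs of PBS tissues (0.13 to 0.71), but not throughout in the liver (-0.16 to 0.16) or the muscle (-0.27 to 0.33). Some arrays correlated more with another number, as PBS kidney 3 with LPS kidney (0.45 against 0.29) and PBS liver 1 with PBS kidney (0.65 against 0.44). This pairing is therefore only a hint from the data, since the labels give numbers alone. Alternatives were quantile normalization, a shift at the 50th percentile, normexp with an offset of 50 (on the median signal, as no column of mean signals was used), the authors' table, other filters and probe rules, a threshold of 0.01, blocks for slide, pool or replicate number, fits over all arrays, and leaving out each array in turn. The number of arrays limits the precision, and p-values measure the spread between the arrays of a group. Each group lay on more than 1 slide and some on more than 1 scan day, so this spread is not that of pools alone. No muscle array shared a scan day with a liver or kidney array. Sequences of the members were not used here.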

Additional observations from a re-analysis of the deposited data

Results flagged for a closer look

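Each of 39 members and list medians was examined in each group of 4 arrays for an array far from the other 3, judged by the gap to its nearest neighbour as a share of the group's range (Dixon's criterion at the 95% level). Of 226 groups, 13 had such an array, and chance flags about 1 in 20 groups. That rate does not hold for members chosen after their values were seen, among them tpm4a, tnnt2a, atp2a2a, mybpc3 and ckmt2b.

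In the LPS liver the first pool stood apart for the median of the heart members (1.29, the next array at -4.06), for tpm4a (5.57, next -3.95), tnnt2a (4.91, next -2.96), atp2a2a (4.04, next -0.85), mybpc3 (3.13, next -4.97) and ckmt2b (3.00, next -4.63). In the PBS liver the second pool was high for ckmb (-1.16, next -2.45).

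The fourth PBS kidney pool was high for the median of the slow skeletal members (-1.20, next -4.40), for myl13 (0.13, next -4.49), myl10 (-0.37, next -3.76) and tnnc1b (-2.26, next -4.93). The second PBS kidney pool was low for ryr1b (-6.16, next -2.83), and the third LPS kidney pool was low for myhc4 (-0.60, next 3.63).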

How the results depend on the processing

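Over the alternatives, 160 counts of members called stayed the same or within 1.5 times their value and 21 did not. The 160 include the fits of the LPS comparisons and the interaction in which 0 calls stayed 0. They are therefore no measure of how stable the tissue comparisons were. Of the values of named members, 427 kept their side of the threshold and 15 lost the call, while none changed sign. The members followed were only the called ones of largest change without overlap and those lower in muscle. Having been chosen for this in the main fit, they were likely to keep their sign and call. Other named members, among them those near the threshold, were not followed. LPS against PBS in the liver had 0 calls in all settings except the slide as a fixed block (13), in the muscle 0 in all, as had the interaction, and in the kidney 0 except for the fits without 1 array, which gave 0 to 1 (1 without PBS replicate 4). Muscle against kidney fell from 49 to 20 at an adjusted p under 0.01 and to 27 with the slide as a random block, and ranged from 25 to 54 without 1 array: 25, 26 and 32 without PBS muscle 4, 2 and 1, and 29 and 32 without PBS kidney 2 and 3. Kidney against liver went from 17 to 33 with a shift at the 50th percentile, 8 with normexp, 7 at an adjusted p under 0.01, 7 with the slide as a random block, 31 with all 24 arrays fitted and 31 on the LPS arrays. Without 1 array it ranged from 7 to 29, with 7 without PBS liver 2, 3 or 4 or PBS kidney 1 and 29 without PBS kidney 4. Muscle against liver ranged from 43 to 51 without 1 array, and its median was 2.69 with normexp. The kidney median after LPS turned to -0.02 with normexp and to -1.20 with slides as fixed blocks. The share of all genes called also differed between settings. In kidney against liver 2.86% were higher and 2.89% lower in the main fit, and 8.13% and 13% with the replicate number as a block. For most other settings this share is not given. A change in the members can then not be told from a change in all genes. The causes were not tested.

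With the replicate number as a block (replicate block), kidney against liver had 37 calls, muscle against liver 55 and muscle against kidney 56, and the LPS comparisons 0. This pairing changed no other count by over 1.5 times. Among the tissue comparisons fitted in this way, the share of all genes is given only for kidney against liver. Low signal limits the liver comparisons, where 37 members were not well above background on any PBS array.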

Other observations

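Besides the heart list, some other genes known from striated muscle were high on the first LPS liver array. The skeletal lists did not follow as sets. That array was the highest of the liver arrays for 7 of 28 fast genes and 2 of 10 slow genes. The median of the 20 muscle genes that are not members was at most -2.60 on the LPS liver arrays and -2.67 on the PBS liver arrays. The alpha-actinin actn2b was at 4.51 there. The cardiac actin gene actc1a, no member, was at 5.20, against 0.02 to 1.86 on the other 7 liver arrays. Its paralog actc1b, no member either, did not follow and lay below nppa on that array, though it was well above background on 23 of the 24 arrays. The median of the 4 heart genes that are not members was at most 0.77 on the LPS liver arrays. The myoglobin gene mb, no member, was at 6.95, but it was well above background on all 24 arrays. The heart transcription factor gene nkx2.5 was not well above background on any of the 24 arrays. Some members gave little signal in these tissues: tnni3k was well above background on 0 of 24 arrays, mylk3 on 1, myh7l on 2 and the parvalbumin pvalb5 on 3.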
